A study of Mus musculus with 23 samples.

Results

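Mouse embryonic stem cells with RAS deleted that were moved to differentiation medium held 152 genes well above the level of RAS-carrying cells, and the same genes were low when ERF was knocked out as well. The genes were chosen from 53607 gene rows by their measured values. Levels in CPM (counts scaled to a library total of 1000000) were computed without Gm26917, a predicted gene that took 17.6% to 27.9% of the counts of a library. A gene was kept when log2(mean CPM + 1) in RAS-deleted FA cells exceeded both the control FA cells and the RAS-deleted ERF KO FA cells by at least 2. Of 164 rows past both limits, 12 were left out by name: Cdhr1, Cldn2, Dppa3, Esrrb, Klf4, Nr0b1, Nr5a2, Prdm14, Slc26a9, Tbx3, Tfcp2l1 and Zfp42. The values of these 3 groups in FA therefore chose the genes and are given as a description with no test. Whether ERF acts on these genes directly was not tested.

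Total RNA, depleted of ribosomal RNA, was sequenced from 23 libraries of a Raslox/lox embryonic stem cell line. All groups share the H-Ras-/- and N-Ras-/- genotype, a remaining RAS allele flanked by loxP sites, and Ubiq-CreERT2, a Cre recombinase that acts once 4-hydroxytamoxifen (OHT) is given. "RAS-deleted" cells received OHT for 6 days, and the cells called control or RAS-present did not, so RAS loss and OHT exposure cannot be told apart. "ERF KO" cells carry the same RAS alleles and an ERF knockout, and whether they are 1 clone or several is not given in the sources used here, so ERF loss and a difference between lines cannot be told apart. Each genotype was grown in 2iL, in which LIF and blockers of MEK and GSK3 keep stem cells naive, or was moved to 12 ng/ml FGF2 and 20 ng/ml Activin A (FA) for 48 hours to form epiblast-like cells. The 8 groups had 3 libraries each, except the control in FA with 2. The labels do not say whether libraries came from separate cultures, so a p-value here measures the spread between these libraries, which may be technical.

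ERF, an ETS-family protein, represses the genes it binds, and proteins of this family recognise a GGAA core in DNA. RAS proteins carry the FGF signal to the kinases MEK and ERK, and ERK phosphorylates ERF, which then leaves the nucleus. Naive stem cells lose a set of naive genes when FGF signalling starts and gain primed genes such as Fgf5 and Otx2.

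Libraries held 16221640 to 29874207 estimated counts. In 2iL Erf was higher in libraries labelled ERF KO, at 125 to 224 CPM, than in ERF WT libraries, at 91.9 to 118 CPM, and in FA the ranges overlapped, at 66.8 to 89.4 against 71.8 to 98.2 CPM. Hras had at least 188 counts in every library. Nras was at 33.5 to 60.3 CPM in ERF WT libraries, while replicate 2 was the lowest library of each ERF KO group, at 10.2 and 6.71 CPM in 2iL and 15.0 and 25.2 CPM in FA, and the others had 23.2 to 68.1 CPM. Which part of each gene was altered is not given in the sources used here, so a count over a whole gene does not check these labels, and ERF knockout below means the label. Replicate 1 of all 4 ERF WT groups stood apart by a higher level of chromosome 8 genes (median log2 shift 0.298 to 0.373 over 549 genes), and replicate 1 of all 4 ERF KO groups by chromosome 11 genes (0.103 to 0.202 over 789 genes). Of the 152 genes, 4 lie on chromosome 8 and 13 on chromosome 11. Stem cell markers (Pou5f1, Sox2, Sall4, Utf1 and Lin28a) summed to 1336 to 1990 CPM in every group, while fibroblast or feeder markers summed to at most 30.2 CPM in any library, with Postn and Lum at 0 in all FA groups.

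All 152 genes passed the filter on low counts, which was set over all 8 groups, so a gene could pass through the RAS-deleted FA libraries that selected it. With only the groups compared in the filter and the fit, 133 to 144 of them were tested, depending on the comparison. The annotation lists 127 as protein coding, 10 as lincRNA, 4 as unclassified transcripts (TEC), 3 each as antisense, processed transcript and processed pseudogene, and 2 as unprocessed pseudogenes. The median over the 152 genes of the mean CPM was 16.7 in control 2iL cells, 23.9 in RAS-deleted 2iL cells, 6.06 in ERF KO 2iL cells and 6.25 in RAS-deleted ERF KO 2iL cells. In FA the corresponding medians were 2.89, 27.7, 2.01 and 2.45 CPM. RAS-deleted FA cells were thus the group in which the set stood near its 2iL level, and the other 3 FA groups were low. In these bulk samples fewer cells with a transcript and less transcript per cell cannot be told apart. The smaller of the 2 selecting differences ran from 2.01 to 5.68 on the log2 scale, with a median of 2.43. Every RAS-deleted FA library lay above every control and RAS-deleted ERF KO FA library for 149 of the 152 genes. The 3 exceptions were Hist1h4m, Gm45090 and Gm47924.

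**Figure D1:**
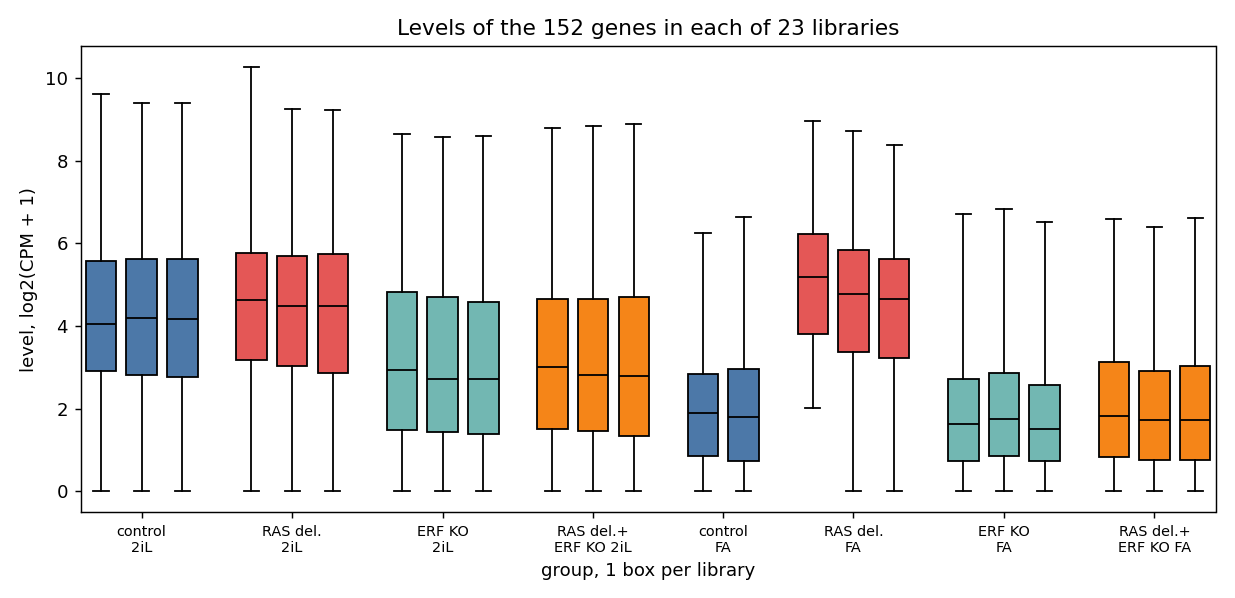
Level, log2(CPM + 1), of the 152 genes in each of the 23 libraries. Boxes span the quartiles with a line at the median, whiskers reach the lowest and highest gene, and colours mark the genotype (blue control, red RAS-deleted, green ERF KO, orange RAS-deleted ERF KO). The medians of the 3 RAS-deleted FA libraries lie between 4.66 and 5.18, against 1.51 to 1.89 in the other FA libraries.

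The threshold cuts through a continuous range. Just inside it were Arl14epl, with differences of 2.34 and 2.01, Mras, with 2.05 and 2.02, and Ffar3, with 2.05 and 2.04, each against control and then against RAS-deleted ERF KO cells on the log2 scale. Just outside were Gm38414 (2.04 and 1.999), Chmp4c (1.99 and 2.03) and Kank4 (2.09 and 1.99). Replicate 1 of the RAS-deleted FA cells was the highest of its group for 93 genes and replicate 3 the lowest for 105. Without replicate 1 of that group 29 of the 152 genes no longer met the rule, against 1 to 7 without any other single library, and 115 met it whichever of the 8 libraries was left out.

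The ETS family binds short GGAA words, so the sequences just before the start sites are shown for the gene with the largest selecting difference, Aqp3, and for the first 3 named genes that hold CCGGAA there, Sox21, Gata3 and Sdc4. They are the 250 bases before the RefSeq start on build GRCm38.p6, 5′ to 3′ on the gene's own strand, which is the minus strand for all 4. Capitals mark CCGGAA or GGAAGT on either strand, so TTCCGG is CCGGAA read on the opposite strand. The windows are chr4:41098184-41098433 for Aqp3, chr14:118237031-118237280 for Sox21, chr2:9878601-9878850 for Gata3 and chr2:164443189-164443438 for Sdc4. By this choice none overlaps an annotated exon of the same strand. The Gata3 and Sdc4 windows lie inside longer annotated gene models, and those of Gata3 and Sox21 overlap exons of the opposite-strand RNAs Gm13256 and Gm4675.
Aqp3: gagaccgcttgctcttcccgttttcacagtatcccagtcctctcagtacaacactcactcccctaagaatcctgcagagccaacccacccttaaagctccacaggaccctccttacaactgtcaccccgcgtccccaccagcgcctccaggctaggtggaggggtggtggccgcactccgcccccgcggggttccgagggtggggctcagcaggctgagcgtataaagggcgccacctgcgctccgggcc
Sox21: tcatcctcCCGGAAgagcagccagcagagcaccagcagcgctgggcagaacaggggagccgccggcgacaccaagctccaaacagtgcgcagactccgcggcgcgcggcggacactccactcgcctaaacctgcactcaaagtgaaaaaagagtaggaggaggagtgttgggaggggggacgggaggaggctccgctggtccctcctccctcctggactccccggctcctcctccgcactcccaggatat
Gata3: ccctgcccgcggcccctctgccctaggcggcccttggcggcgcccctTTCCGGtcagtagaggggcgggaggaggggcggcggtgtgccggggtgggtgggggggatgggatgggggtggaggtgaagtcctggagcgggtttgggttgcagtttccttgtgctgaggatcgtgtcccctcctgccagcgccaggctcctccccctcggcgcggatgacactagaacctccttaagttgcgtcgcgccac
Sdc4: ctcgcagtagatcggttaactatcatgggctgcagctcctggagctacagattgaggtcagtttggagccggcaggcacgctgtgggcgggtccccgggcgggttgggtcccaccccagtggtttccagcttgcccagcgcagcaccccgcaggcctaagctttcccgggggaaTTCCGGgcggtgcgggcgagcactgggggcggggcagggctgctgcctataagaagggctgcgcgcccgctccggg
Aqp3 holds neither word in this window, and the other 3 hold CCGGAA once each.

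Across the set, 98 of the 152 genes matched 117 RefSeq promoters of 300 bases (250 before to 50 after the start). Searched on both strands, CCGGAA was in 11.1% of these promoters against 14.9% of all 32851 promoters, and GGAAGT in 20.5% against 23.8%. The words overlap where CCGGAA is followed by GT. Neither ETS word was more frequent in the set than among all promoters. GGGNGTGG, a word of KLF factors, was in 23.1% against 17.6%, and CTTTGA, of TCF factors, in 12.8% against 16%. The word AAGGTCA, of oestrogen-related receptors, was in 2.56% against 4.72%, TTCNNNGAA, of STAT factors, in 4.27% against 8.30%, TGANTCA, of AP-1, in 6.84% against 7.81%, and ATGCAAAT, of POU factors, in 1.71% against 1.74%. These shares describe letters in short windows and were not tested.

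Set against the naive state, RAS-deleted FA cells were neither uniformly at nor above the level of control 2iL cells. By log2(mean CPM + 1), 81 of the 152 genes were within 1 of control 2iL cells, 56 were above by 1 or more and 15 were below by 1 or more. The last count became 23 when the first RAS-deleted FA library was left out and 9 when the third was. Against RAS-deleted 2iL cells the numbers were 89, 45 and 18. Control FA cells were below control 2iL cells for 121 genes, near for 29 and above for 2. In control 2iL cells 121 of the genes had 5 CPM or more and 11 had less than 1 CPM. RAS-deleted FA cells were the highest of the 8 groups for 88 genes, 1 of the 2 ERF WT 2iL groups for 58, and an ERF KO 2iL group for 6 (Jam2, Qpct, Sdc4, Cpsf4l, Fam81a and Mras).

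**Figure D2:**
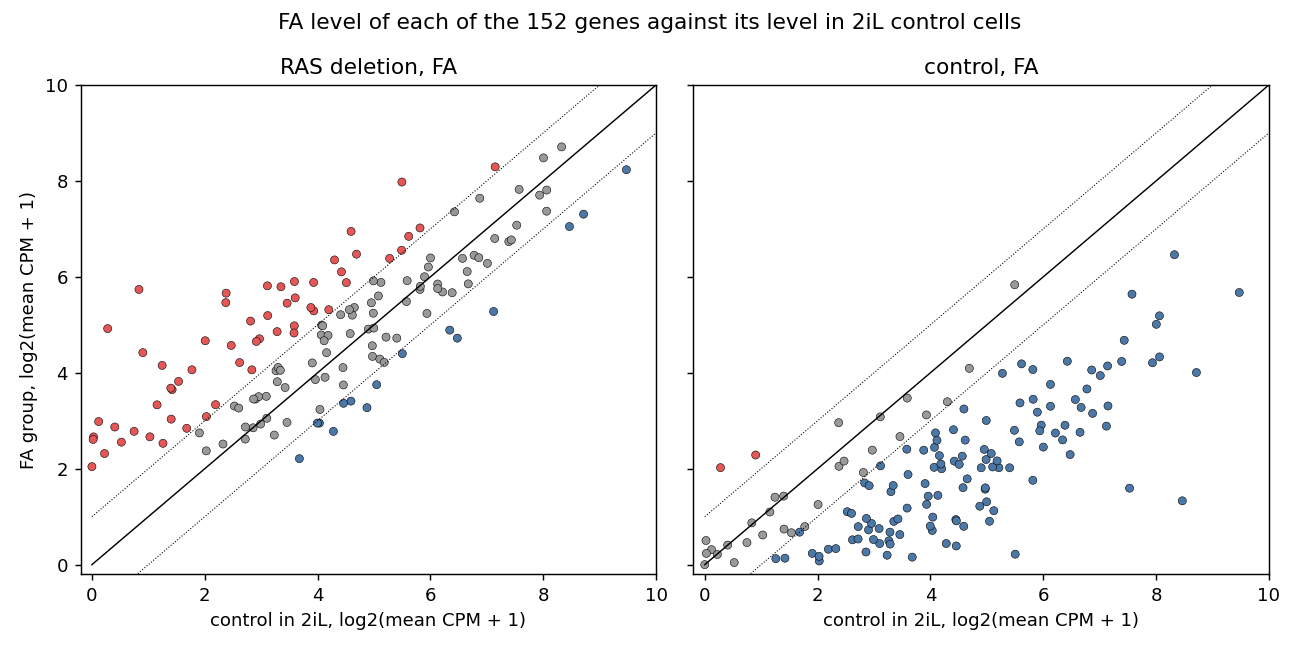
Mean level of each of the 152 genes in FA, log2(mean CPM + 1), against control 2iL cells on the same scale, for RAS-deleted cells (left) and control cells (right). The solid line marks equal levels and the dotted lines a difference of 1. In the left panel 56 genes are red (above by 1 or more), 81 grey and 15 blue (below by 1 or more), and in the right panel 121 are blue.

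ERF KO cells with RAS present in FA, a group the selection did not use, were low for these genes. Their mean level was within 1 log2 unit of control FA cells for 146 of the 152 genes, 5 were lower and 1 was higher. It lay below the midpoint between control and RAS-deleted FA cells for every one of the 152 genes, and 150 genes had every RAS-deleted FA library above every ERF KO FA library. These comparisons share the control and RAS-deleted FA libraries with the selection.

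In libraries that the selection did not use, the set was most often lower in ERF KO naive cells. The selection had already set RAS-deleted ERF KO cells against RAS-deleted cells in FA. These comparisons set the same ERF labels against each other in 2iL. A difference between the lines in both media would enter both, so the falls below are not independent of the selection. A gene was called when its adjusted p in edgeR's quasi-likelihood test was under 0.05 and its change at least 2-fold, and rose or fell is used for called genes. With ERF knockout in 2iL and RAS present, 89 of the 152 genes fell and 2 rose (Gprc5a and AU015836), where 4.52% of all 20372 genes tested fell and 5.2% rose. The median log2 difference over the set was -1.36, against -0.0019 over all genes. With ERF knockout in 2iL and RAS deleted, 97 fell and 2 rose (Gprc5a and Sdc4), against 7.15% and 5.83% of all genes, with a median of -1.37. These 2 comparisons share no library, but the ERF KO groups of both carry the same label and the same replicate 1 shift on chromosome 11. There were 82 genes that fell in both (53.9% of the set), where 3.47% of all genes tested did. The 82 made up 92.1% of the first list and 84.5% of the second. Over all genes tested, those that fell in both made up 76.8% and 48.6% of the corresponding lists. There were 48 genes that fell in neither (31.6% of the set, against 91.8% of all genes tested), and these include genes near 0 in 2iL, where a fall could not be seen. With only the groups compared in the fit, 86 of 141 and 93 of 142 genes tested fell. Leaving out replicate 1 of every group gave 85 and 94 genes that fell, and leaving out replicate 2 of the ERF KO group, the library low in Nras, gave 84 and 94.

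The classes of genes above, near and below their 2iL level use RAS-deleted FA libraries, which also served the selection, and control 2iL libraries, which are also the control arm of the comparison with RAS present, so the following split is a description only. With ERF knockout in 2iL and RAS present, a fall was called for 30 of the 56 genes above their 2iL level in RAS-deleted FA cells (53.6%), 51 of the 81 near it (63.0%) and 8 of the 15 below it (53.3%). The genes with the steepest called falls were Gata3, Pramel6 and Spic. Dnajc6, an auxilin that uncoats clathrin vesicles, and Mreg, a melanosome transport protein, both selected strongly in FA, were not called in that comparison, with log2 differences of -0.24 (SE 0.12, adjusted p = 0.145) and -0.31 (SE 0.12, adjusted p = 0.0674). Mras, a RAS-related GTPase, had a difference of 0.41 (SE 0.18, adjusted p = 0.0966).

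Markers of other cell types moved in both ERF knockout comparisons. Of 14 primitive endoderm markers tested, 11 rose and 0 fell with ERF knockout in 2iL with RAS present, and the 16 listed summed to 1124 to 2561 CPM in ERF KO against 431 to 499 CPM in control libraries. Of 8 two-cell-like markers, 6 rose, with sums of 76.9 to 230 against 19.4 to 36.5 CPM. With ERF knockout and RAS deleted, 6 of the 14 primitive endoderm markers rose and 0 fell, with sums of 669 to 1182 against 396 to 423 CPM in RAS-deleted libraries. None of the 8 two-cell-like markers was called there, with sums of 108 to 272 against 111 to 153 CPM. None of these markers is in the set, and their part in the result was not tested. In FA the primitive endoderm sum was 547 to 717 CPM in RAS-deleted against 1037 to 1806 CPM in control libraries, with Ttr at 0 in the first and Afp in the second. Two-cell-like sums in FA were 129 to 554 against 43.6 to 93.2 CPM.

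**Figure D3:**
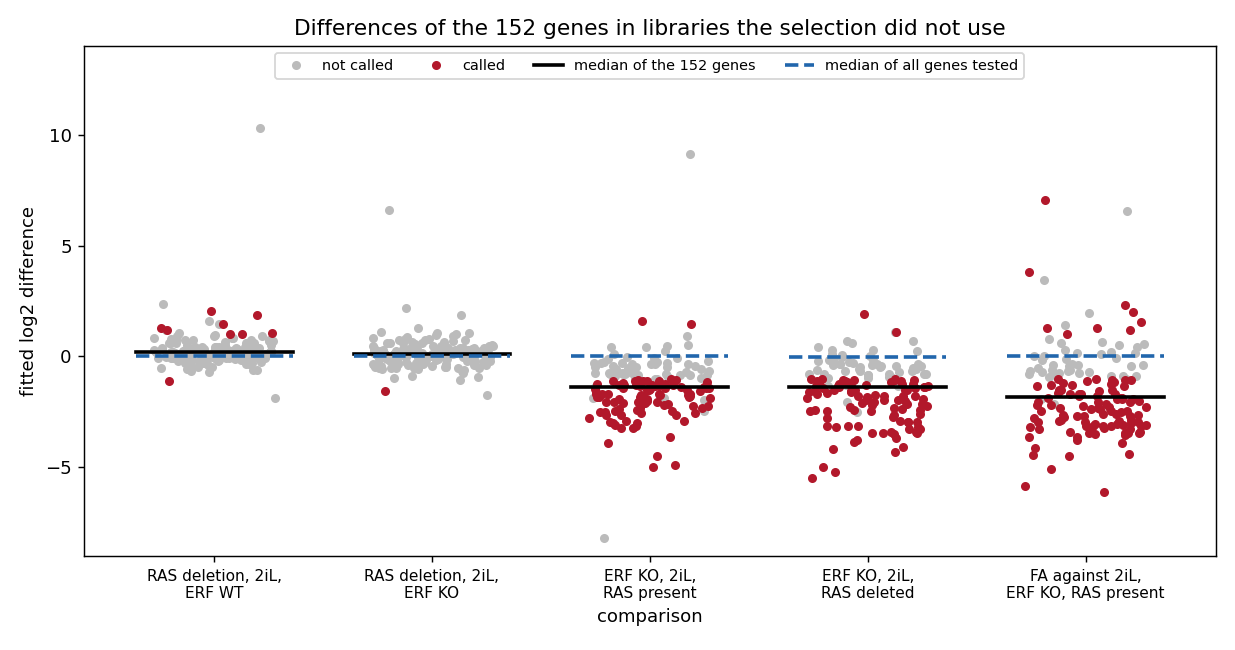
Fitted log2 differences of the 152 genes in 5 comparisons whose libraries the selection did not use. Each point is a gene, red when called, with a black line at the median of the set and a dashed blue line at the median of all genes tested. The set's median lies at -1.36 and -1.37 for ERF knockout in 2iL, and at 0.19 and 0.092 for RAS deletion in 2iL.

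RAS deletion in 2iL was called for a small part of the set, though with ERF WT the share that rose was above that of all genes. With ERF WT, 8 rose and 1 fell (5.26% and 0.658% of the set), against 0.692% and 0.506% of all genes. The median log2 difference was 0.19. At an unadjusted p under 0.05 there were 50 genes in either direction (32.9%, against 21.5% of all genes tested). The genes that rose were Gm48362, Gm43549, Serpina3m, G430049J08Rik, Ddr2, Sh3rf2, Notum and Prrt3, and Phf19 fell. Gm48362, a predicted gene, rose by 2.03 on the log2 scale (SE 0.32, adjusted p = 0.00242), from 37.6, 44.0 and 50.6 CPM to 214, 172 and 158. Gm43549, another predicted gene, was at 3.01, 4.78 and 4.76 CPM in control and 18.6, 16.3 and 11.1 in RAS-deleted 2iL libraries. Without replicate 1 of every group, 3 genes rose and 0 fell. Leaving out replicate 1 of the RAS-deleted cells left 5 calls in all, replicate 1 of the controls 4, and replicate 2 of the controls 5. Of 8 two-cell-like markers 4 rose in the same comparison, and their part in the result was not tested.

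With ERF KO, RAS deletion in 2iL left 0 genes higher and 1 lower by edgeR, against 0.0687% and 0.142% of all genes, with a median of 0.092. At an unadjusted p under 0.05 there were 29 genes in either direction (19.1%, against 14.6% of all genes tested), and DESeq2 called 0 higher and 2 lower. A fit with a replicate block on the groups compared called more genes, as given in the last paragraph. The gene that fell was Rims1, a scaffold of synaptic vesicle release, which fell by 1.57 on the log2 scale (SE 0.33, adjusted p = 0.0186), from 6.21, 2.57 and 3.15 CPM to 2.22, 0.847 and 0.761. With only the groups compared in the fit its adjusted p was 0.0894. Without replicate 2 of the RAS-deleted ERF KO cells its adjusted p was 0.111. No gene of the set was called without replicate 1 of the ERF KO cells or without replicate 3 of the RAS-deleted ERF KO cells. Of 14 primitive endoderm markers tested, 0 rose and 2 fell (Cubn and Dab2) in this comparison. The 16 listed summed to 669 to 1182 CPM in RAS-deleted ERF KO against 1124 to 2561 CPM in ERF KO libraries. Their part in the result was not tested.

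The difference between the 2 RAS effects in 2iL, tested as an interaction, was called for 1 gene in each direction, against 0.162% positive and 0.216% negative over all genes. Lrrc15, a leucine-rich repeat membrane protein, had an interaction of -2.33 (SE 0.53, adjusted p = 0.0274). Ffar3, a receptor for short-chain fatty acids, had 1.76 (SE 0.45, adjusted p = 0.0492), with 13.8, 10.7 and 10.9 CPM in control and 8.67, 5.96 and 7.41 in RAS-deleted libraries where ERF was WT, and 1.23, 1.43 and 1.78 and 3.18, 3.32 and 2.37 where it was KO. Both calls were lost when single libraries were left out: no gene of the set was called without replicate 1 or 2 of the controls, 2 or 3 of the RAS-deleted cells, 1 of the ERF KO cells, or 2 or 3 of the RAS-deleted ERF KO cells, and 1 was called without replicate 1 of the RAS-deleted cells or 2 of the ERF KO cells. Among these fits Ffar3 kept its call only without replicate 3 of the controls. DESeq2 called 2 positive and 6 negative.

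From 2iL to FA in ERF KO cells with RAS present, 98 of the 152 genes fell and 9 rose, against 7.46% and 12.3% of all genes, with a median log2 difference of -1.82 over the set and 0.02 over all genes. Jam2 fell by 6.10 on the log2 scale (SE 0.19, adjusted p = 4.80e-15) and Cpsf4l, a gene similar to a polyadenylation factor subunit, fell by 5.06 on the log2 scale (SE 0.29, adjusted p = 2.00e-12). The genes that rose were Olfr701, Muc19, Gm43549, Gata3, Gm48898, Prrt3, Abca12, AU015836 and Mlph. Of the 6 fits that each left out 1 library of this comparison, Mlph lost its call in 5, Abca12 in 4 and AU015836 in 1, and a fit on only the groups compared had 5 genes that rose. Muc19 rose by 3.80 on the log2 scale (SE 0.94, adjusted p = 0.00215), from 0, 1 and 1 counts in 2iL to 11, 9 and 20 in FA. Its 2iL libraries were under the floor of 3 counts used below, so the size of this rise is not well measured. This comparison shares the ERF KO 2iL libraries with the ERF knockout comparison above. Outside the set, 13 of 15 primed genes rose and 2 fell, and 10 of 20 ERK response genes rose and 0 fell. Of the markers above, 4 of 14 primitive endoderm and 2 of 8 two-cell-like ones rose and 0 fell, and their part in the result was not tested. Of 20 other naive-associated genes, 11 fell and 5 rose, and the 4 that belong to the set (Tcl1, Pecam1, Jam2 and Mras) were all among those that fell.

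In 2iL with ERF knockout, 58.6% of the set fell with RAS present and 63.8% with RAS deleted, against 4.52% and 7.15% of all genes. From 2iL to FA in ERF KO cells with RAS present 64.5% of the set fell, against 7.46%. The counts by role below are to be read against these shares, and no role was tested as a group. Adhesion and cell surface genes were the role with the most members, 21. Itgb3 encodes the integrin beta-3 subunit, which pairs with alpha chains to bind matrix proteins. It was at 58.7, 52.7 and 54.4 CPM in control 2iL libraries, 2.00 and 2.77 in control FA, 75.5, 49.4 and 32.1 in RAS-deleted FA and 2.53, 1.93 and 2.07 in RAS-deleted ERF KO FA libraries. The RAS-deleted FA values thus spanned the 2iL range and lay far above the other FA groups. In 2iL, where the selection used no library, Itgb3 was at 25.7, 23.2 and 16.7 CPM in ERF KO cells with RAS present and fell by 1.37 on the log2 scale (SE 0.23, adjusted p = 0.000263) against control cells. Lrrc15 was at 7.47, 8.87 and 11.3 CPM in control 2iL, 13, 13.7 and 15.4 in RAS-deleted 2iL and 47.7, 52.0 and 63.6 in RAS-deleted FA libraries. Its highest values were thus in FA without RAS. ERF KO 2iL libraries had 1.81, 0.784 and 0.547 CPM and RAS-deleted ERF KO 2iL libraries 0.370, 0.424 and 0.0845. Lrrc15 fell by 3.13 on the log2 scale (SE 0.28, adjusted p = 2.49e-08) with ERF knockout where RAS was present and fell by 5.46 on the log2 scale (SE 0.35, adjusted p = 9.71e-11) where it was deleted.

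Ly6a, the Sca-1 surface antigen, was at 47.8, 40.2 and 45.0 CPM in control 2iL, 102, 83.5 and 93.9 in RAS-deleted 2iL and 6.86, 10.1 and 12.9 in ERF KO 2iL libraries. With ERF knockout and RAS present it fell by 2.19 on the log2 scale (SE 0.43, adjusted p = 0.00117) in 2iL. Its RAS-deleted FA libraries were at 37.9, 16.3 and 6.13 CPM, so the replicates of that group ranged widely and all lay below the 2iL controls, while control FA libraries had 0.146 and 0.18. Ly6a belongs to a family of near-identical genes, and its estimated counts may include reads of relatives. Fat2, a large atypical cadherin, was at 39.2, 26.1 and 18.7 CPM in RAS-deleted FA and 15.3, 5.09 and 5.84 in control 2iL libraries. It fell by 1.42 on the log2 scale (SE 0.37, adjusted p = 0.00693) with ERF knockout in 2iL, and without replicate 1 of the 2iL controls the fitted log2 difference was -0.71 (adjusted p = 0.087). Jam2, a junctional adhesion molecule, differed from these genes in 2iL: its ERF KO libraries (256, 279.8 and 261 CPM) lay above the control libraries (172, 183 and 196 CPM), by a fitted log2 difference of 0.51 (SE 0.14, adjusted p = 0.0107), which is under the 2-fold limit used for a call. In FA, Jam2 had 2.29 and 1.74 CPM in control, 172, 121 and 109 in RAS-deleted and 12.3, 9.05 and 8.57 in RAS-deleted ERF KO libraries. Pecam1, an adhesion molecule of endothelium that naive stem cells also carry, had 228, 218 and 229.7 CPM in RAS-deleted FA and 209, 183 and 175 in control 2iL libraries, and ERF KO 2iL libraries overlapped the controls at 216, 173 and 165. Over the 21 genes of this role, 12 fell and 0 rose with ERF knockout in 2iL with RAS present, 10 fell and 1 rose with RAS deleted, and 18 fell from 2iL to FA in ERF KO cells with RAS present.

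Sdc4, a heparan sulphate proteoglycan of the cell surface, was higher without ERF in 2iL where RAS was deleted. It was at 240.5, 280.2 and 277 CPM in RAS-deleted ERF KO and 127, 130.2 and 129 in RAS-deleted 2iL libraries, and it rose by 1.09 on the log2 scale (SE 0.17, adjusted p = 3.97e-05) with ERF knockout there. RAS-deleted FA libraries had 112, 106 and 98.7 CPM and RAS-deleted ERF KO FA libraries 20.6, 19.3 and 22.7. The CCGGAA word printed above is in the Sdc4 window. It is also in the windows of Sox21 and Gata3, which fell with ERF knockout in 2iL with RAS present. Its part in these changes was not tested.

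Transporters held the largest selecting difference. Aqp3 is a channel for water and glycerol. Its libraries had 443, 298 and 315 CPM in control 2iL and 99.9, 100.5 and 107 in ERF KO 2iL. In FA the control libraries had 1.71 and 1.32 CPM, RAS-deleted ERF KO libraries 2.22, 1.55 and 0.982 and RAS-deleted libraries 243, 87.0 and 64.5. All RAS-deleted FA libraries were thus far above the other FA groups and below the 2iL controls. The RAS-deleted FA library at 243 CPM stood well above those at 87.0 and 64.5 CPM, which were closer to each other. In 2iL Aqp3 fell by 1.81 on the log2 scale (SE 0.34, adjusted p = 0.000968) with ERF knockout, and it fell by 5.83 on the log2 scale (SE 0.49, adjusted p = 6.77e-08) from 2iL to FA in ERF KO cells with RAS present. Slc1a1, a glutamate transporter, fell by 1.68 on the log2 scale (SE 0.28, adjusted p = 0.000126) with ERF knockout in 2iL with RAS present, from 25.0, 20.0 and 17.6 CPM to 6.99, 7.34 and 5.54. Of the 9 transporters and channels, 6 fell with ERF knockout in 2iL with RAS present, and 6 with RAS deleted.

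**Figure D4:**
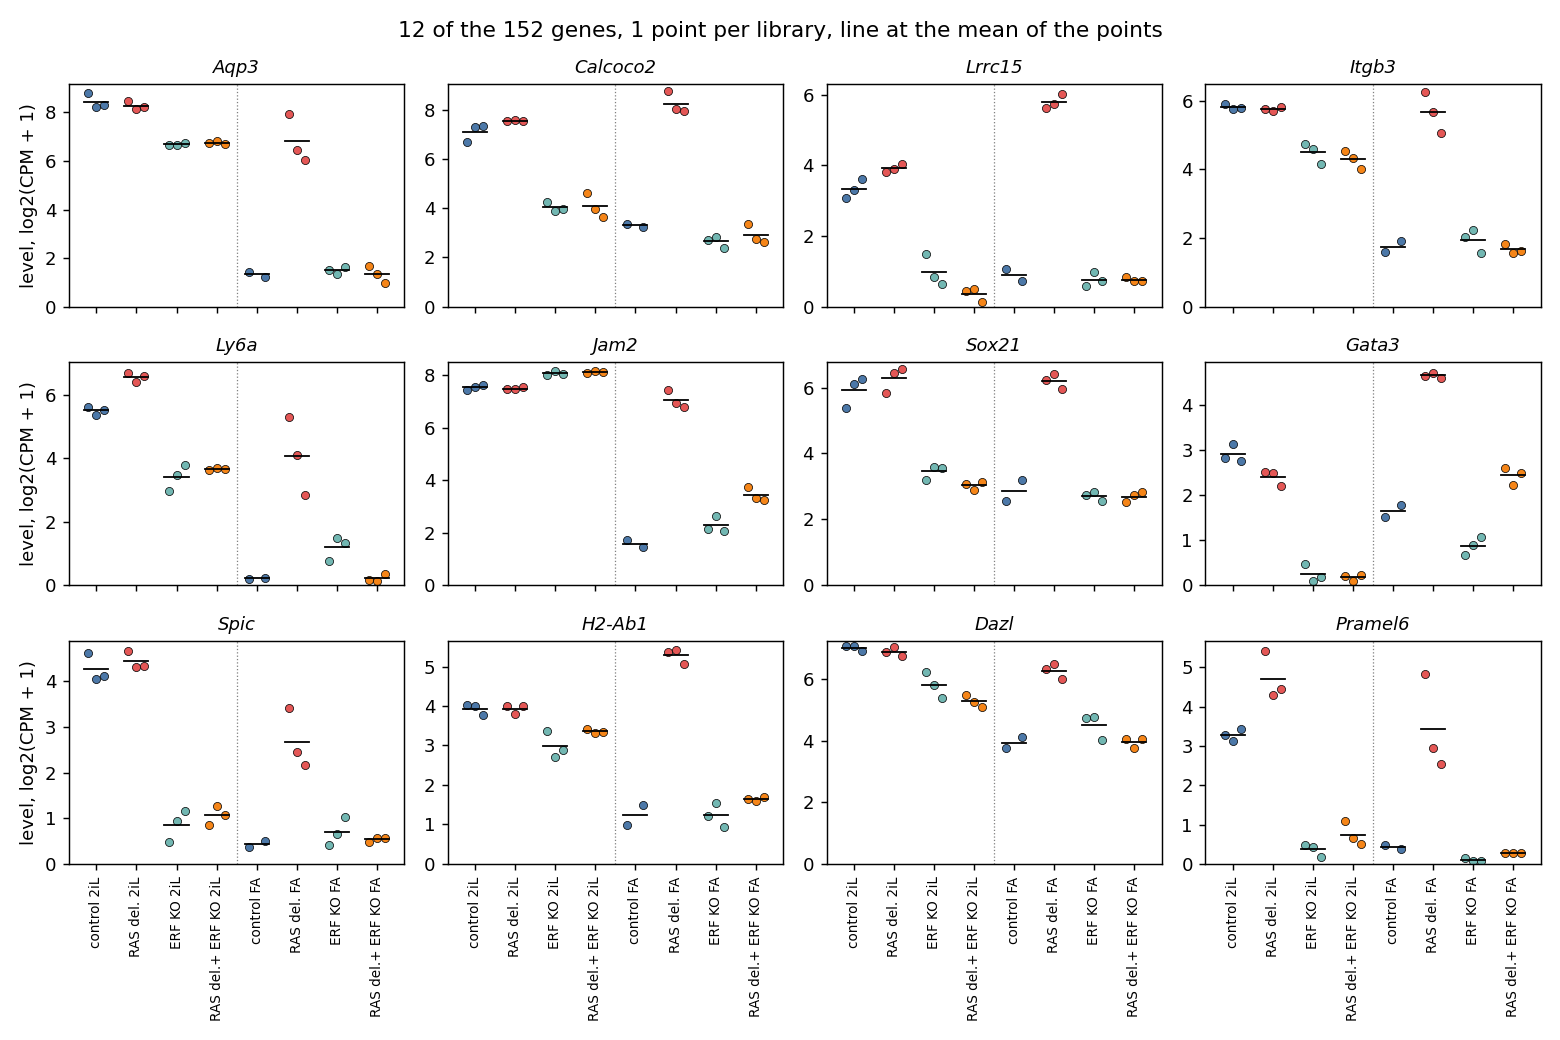
Level, log2(CPM + 1), of 12 of the genes in each library. Points are single libraries and each line marks the mean of the points, with colours for genotype and a dotted line between 2iL and FA. RAS-deleted FA libraries are above the other FA libraries in each panel, and in 2iL the ERF KO libraries are below the ERF WT libraries for every gene shown except Jam2.

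Among receptors, Ddr2, a receptor tyrosine kinase for collagen, was at 14.7, 21.8 and 24.8 CPM in control and 50.3, 47.6 and 43.2 in RAS-deleted 2iL libraries, which do not overlap. It rose by 1.19 on the log2 scale (SE 0.31, adjusted p = 0.0305) with RAS deletion in 2iL and fell by 1.83 on the log2 scale (SE 0.35, adjusted p = 0.000824) with ERF knockout where RAS was present. The rise with RAS deletion was not called when any of the 6 control and RAS-deleted 2iL libraries but replicate 3 of the controls was left out, with 0.99 (adjusted p = 0.149) without replicate 1 of the controls. RAS-deleted FA libraries had 98.5, 59.1 and 45.7 CPM. Gprc5a, an orphan G protein-coupled receptor, ran the other way in 2iL: it rose by 1.61 on the log2 scale (SE 0.27, adjusted p = 0.000164) with ERF knockout where RAS was present and rose by 1.93 on the log2 scale (SE 0.27, adjusted p = 1.55e-05) where RAS was deleted. Its ERF KO 2iL libraries had 21.2, 24.7 and 27.0 CPM, its control 2iL libraries 11.5, 5.32 and 6.20 and its RAS-deleted FA libraries 36.7, 37.1 and 32.9. Of the 7 receptors 5 fell and 1 rose with ERF knockout in 2iL with RAS present, as many did with RAS deleted, and all 7 fell from 2iL to FA in ERF KO cells with RAS present. Ddr2 lost this last call in 4 of the 6 fits that left out 1 library, with -0.84 (adjusted p = 0.133) without replicate 3 of the ERF KO FA cells.

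The transcription factors and chromatin proteins included 9 of 13 that fell with ERF knockout in 2iL with RAS present, and 8 with RAS deleted, and none that rose in either. Sox21, a SOX-family repressor, was at 40.6, 68.2 and 75.4 CPM in control 2iL, 8.15, 11.1 and 10.9 in ERF KO 2iL and 74.3, 83.5 and 60.4 in RAS-deleted FA libraries, and fell by 2.64 on the log2 scale (SE 0.25, adjusted p = 4.65e-07) with ERF knockout in 2iL. Its RAS-deleted FA values overlapped its control 2iL values. Gata3, a GATA factor of trophoblast and T cells, was at 6.11, 7.79 and 5.72 CPM in control 2iL and 0.388, 0.0713 and 0.137 in ERF KO 2iL libraries, and fell by 4.98 on the log2 scale (SE 0.32, adjusted p = 2.20e-10) there. In FA it had 24.1, 25.2 and 23.1 CPM in RAS-deleted, 1.85 and 2.41 in control and 5.02, 3.69 and 4.64 in RAS-deleted ERF KO libraries, so the RAS-deleted FA level was above that of 2iL. From 2iL to FA in ERF KO cells it rose by 2.00 on the log2 scale (SE 0.41, adjusted p = 0.000312), against the direction of most of the set. Gata3 is also 1 of the 12 trophoblast markers, so their sum includes a gene that was chosen by its FA values. The 12 markers summed to 136 to 147 CPM in RAS-deleted FA and 83.7 to 97.8 CPM in control FA libraries. In 2iL they summed to 150 to 176 CPM in ERF KO and 218 to 229 CPM in control libraries. None was at 0 in these groups. Of 11 tested, 2 rose (Krt18 and Krt8) and 3 fell (Gata3, Hand1 and Tfap2c) with ERF knockout in 2iL with RAS present. The part of these markers in the result was not tested. Spic, an ETS-family factor of macrophages, was at 23.5, 15.5 and 16.3 CPM in control 2iL, 0.388, 0.927 and 1.23 in ERF KO 2iL and 9.59, 4.47 and 3.51 in RAS-deleted FA libraries, and fell by 4.47 on the log2 scale (SE 0.39, adjusted p = 4.41e-08) with ERF knockout in 2iL. Phf19, a Polycomb-associated protein, is the 1 gene of the set that fell with RAS deletion in 2iL with ERF WT: it fell by 1.11 on the log2 scale (SE 0.22, adjusted p = 0.00449), from 8.39, 6.94 and 5.18 CPM to 3.43, 2.75 and 3.42. Its RAS-deleted FA libraries were the highest of all at 20.3, 31.2 and 23.8 CPM. Without replicate 1 of the 2iL controls the Phf19 difference was -0.93 (adjusted p = 0.0428), short of the 2-fold limit.

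Matrix and secreted proteins, growth factors among them, counted 11, of which 5 fell and 0 rose in each ERF knockout comparison in 2iL. Col9a2, a collagen IX chain, was at 110.0, 90.1 and 78.5 CPM in RAS-deleted FA and 58.9, 36.5 and 36.3 in control 2iL libraries, and fell by 1.10 on the log2 scale (SE 0.23, adjusted p = 0.00139) with ERF knockout in 2iL. Without replicate 1 of the 2iL controls the Col9a2 difference was -0.81 (adjusted p = 0.00973). Notum, a secreted enzyme that removes the lipid from Wnt proteins and is itself a Wnt target, rose by 1.03 on the log2 scale (SE 0.23, adjusted p = 0.0112) with RAS deletion in 2iL and fell by 1.35 on the log2 scale (SE 0.25, adjusted p = 0.000428) with ERF knockout in 2iL with RAS present. The rise was not called without replicate 1 of the controls, at 0.84 (adjusted p = 0.0825), or without replicate 3 of the RAS-deleted cells, at 0.92 (adjusted p = 0.0599). Its libraries had 8.39, 10.8 and 14.3 CPM in control 2iL, 20.2, 22.2 and 26.1 in RAS-deleted 2iL and 46.9, 42.0 and 49.8 in RAS-deleted FA. The 2iL medium itself activates Wnt targets through its GSK3 inhibitor. Of 13 Wnt targets tested, 5 rose and 0 fell with RAS deletion in 2iL with ERF WT (Axin2, Cdx2, Notum, Sp5 and T), and 0 rose and 4 fell with ERF knockout where RAS was present (Ccnd1, Cdx1, Notum and Sp5). Notum is the only one of the 14 listed that belongs to the set. Serpina3m, a serine protease inhibitor of a family of near copies, rose by 1.46 on the log2 scale (SE 0.38, adjusted p = 0.0283) with RAS deletion in 2iL and had 18, 14.4 and 18 CPM in RAS-deleted FA against 1.73, 1.23 and 1.14 in control 2iL libraries. This call was lost when any of the 6 control and RAS-deleted 2iL libraries but replicate 2 of the RAS-deleted cells was left out, with an adjusted p of 0.139 without replicate 1 of the RAS-deleted 2iL cells, and of 0.0581 with only the groups compared in the fit.

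Levels between genes were compared in TPM, a within-library share of transcripts that allows for transcript length. The highest mean TPM in RAS-deleted FA cells were those of Ifitm1 (236 ± 35.3, SD, n = 3), Mfge8 (182 ± 23.1, SD, n = 3), Ifitm3 (178 ± 32.7, SD, n = 3), Calcoco2 (172 ± 48.3, SD, n = 3) and Ckb (133 ± 20.9, SD, n = 3). Ifitm1 and Ifitm3 are interferon-induced membrane proteins that also mark early germ cells, and they are neighbours on chromosome 7. Ifitm1 was at 114, 123 and 129.6 CPM in RAS-deleted FA, 15.6, 25.6 and 28.2 in control 2iL and 8.53 and 8.42 in control FA libraries, so its RAS-deleted FA level was several times that of 2iL. It fell by 1.28 on the log2 scale (SE 0.17, adjusted p = 8.31e-06) with ERF knockout in 2iL with RAS present. Mfge8, a secreted glycoprotein that bridges integrins and phosphatidylserine, had 498, 421 and 333 CPM in RAS-deleted FA and 348, 309 and 302 in control 2iL libraries. Calcoco2, the autophagy receptor NDP52, was at 103, 155 and 163 CPM in control 2iL, 188, 192 and 185 in RAS-deleted 2iL and 18.2, 13.8 and 14.5 in ERF KO 2iL libraries, and fell by 3.20 on the log2 scale (SE 0.27, adjusted p = 2.48e-07) with ERF knockout where RAS was present. Its RAS-deleted FA libraries had 430.2, 259 and 249 CPM, above every 2iL library, and its RAS-deleted ERF KO FA libraries 9.25, 5.67 and 5.24. All 4 autophagy and ubiquitin genes of the set fell in both ERF knockout comparisons in 2iL, where 53.9% of the set and 3.47% of all genes tested did.

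The class II MHC genes H2-Ab1, H2-Aa and H2-Eb1, which present peptides to T cells, lie side by side on chromosome 17. H2-Ab1 was at 40.2, 42.0 and 32.3 CPM in RAS-deleted FA, 15.3, 14.9 and 12.6 in control 2iL and 0.975 and 1.80 in control FA libraries. It fell by 1.04 on the log2 scale (SE 0.19, adjusted p = 0.00019) with ERF knockout in 2iL with RAS present, and was short of the 2-fold limit without replicate 2 or 3 of the ERF KO cells or replicate 1 of the controls, with a log2 difference of -0.90 (adjusted p = 0.00276) in the first case. H2-Eb1 fell by 2.05 on the log2 scale (SE 0.17, adjusted p = 1.21e-08) in the same comparison, from 19.3, 27.2 and 22.1 CPM to 7.18, 3.85 and 5.75. H2-Aa and Ifitm3 were short of the 2-fold limit there, with log2 differences of -0.96 (SE 0.28, adjusted p = 0.0136) and -0.83 (SE 0.089, adjusted p = 3.16e-07), and H2-M5 had one of -0.35 (SE 0.14, adjusted p = 0.0575). Of the 7 MHC and interferon-type genes, 3 thus fell and 0 rose with RAS present, and 2 fell and 0 rose with RAS deleted. Over the set, 7 pairs of its genes lie next to each other within 100 kb, and 13 genes are in such a pair.

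Germline and preimplantation genes numbered 8, and with ERF knockout in 2iL 5 fell where RAS was present and all 8 where RAS was deleted. The shares were 58.6% and 63.8% for the whole set and 4.52% and 7.15% for all genes tested. Pramel6 and Pramef17 belong to the PRAME family of preimplantation embryos, whose close copies can share reads. Pramel6 was at 8.66, 7.79 and 9.81 CPM in control, 41.3, 18.6 and 20.7 in RAS-deleted and 0.388, 0.357 and 0.137 in ERF KO 2iL libraries, and fell by 4.89 on the log2 scale (SE 0.74, adjusted p = 9.88e-05) with ERF knockout where RAS was present. Replicate 1 of its RAS-deleted FA libraries stood above the others (27.6, 6.74 and 4.80 CPM). Dazl, an RNA-binding protein of germ cells, was at 133, 133 and 118 CPM in control 2iL, 73.2, 54.3 and 40.9 in ERF KO 2iL and 79.2, 88.4 and 62.7 in RAS-deleted FA libraries, and fell by 1.22 on the log2 scale (SE 0.20, adjusted p = 0.000166) with ERF knockout. Tcl1, a co-activator of the kinase AKT, fell by 1.11 on the log2 scale (SE 0.18, adjusted p = 4.24e-05) with ERF knockout where RAS was deleted, from 49.1, 53.5 and 59.0 CPM to 20.1, 27.6 and 25.1, and was short of the 2-fold limit without replicate 1 of the RAS-deleted ERF KO cells, at -0.97 (adjusted p = 0.000509). Sycp2l, a gene similar to the synaptonemal complex gene Sycp2, also lost its call there in 2 of the 6 fits that left out 1 library. Of 9 germline genes listed, Dazl is the only member of the set. Among them Ddx4, Mael and Sycp1 rose while Dazl and Tex101 fell with ERF knockout in 2iL with RAS present.

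Some members were near absent from 2iL cultures. Muc19, a secreted mucin, had 13.9, 27.0 and 47.0 CPM in RAS-deleted FA and 0.0912, 0.308 and 0.241 in control 2iL libraries. The replicates of the RAS-deleted FA group were spread widely for Muc19. Olfr701, an olfactory receptor gene, had 5.14, 7.18 and 2.99 CPM in RAS-deleted FA libraries. In ERF KO cells it was at 0 counts in 2iL and at 1.36, 1.09 and 0.542 CPM in FA, at least 4.88-fold higher when a floor of 3 counts per library stands for the 2iL libraries. AU015836, an X-linked gene, had 29.8, 19.3 and 12.2 CPM in RAS-deleted FA and 1.00, 1.00 and 0.602 in control 2iL libraries, and it rose by 1.45 on the log2 scale (SE 0.38, adjusted p = 0.00653) with ERF knockout in 2iL with RAS present. In these genes the FA level without RAS was above any 2iL level.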

How the data were processed

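RNA was measured in 23 libraries of Raslox/lox embryonic stem cells and their ERF KO derivatives. Per the submitters' processing notes, reads were handled with bcl2fastq 2.20.0, fastp 0.20.0 and Salmon on mm10, and per the labels' protocols the reads were 75 bp pairs from directional libraries. The authors deposited estimated counts and TPM per gene symbol and library, and the deposited counts were rounded to whole numbers. CPM left Gm26917 out of the total, with a pseudocount of 1 on the log2 scale. The genes, gene lists and motifs were chosen with earlier results of these data known. Tests used edgeR 4.0.16 (filterByExpr, TMM, robust quasi-likelihood, 1 model over 8 groups, 23 libraries, Benjamini-Hochberg adjustment over 20372 genes). A call needed an adjusted p under 0.05 and a 2-fold change. The fit was tested on simulated data. DESeq2 1.42.0 and other settings were alternatives. Named genes are the 20 with the largest selecting difference apart from predicted genes, members of the gene lists, the 3 steepest calls in each direction per comparison, the 5 highest by TPM and those at the threshold. Genes named beyond that rule were chosen after their values were seen. Roles come from general knowledge and cover 99 of the 152 genes. Promoters come from RefSeq, GRCm38.p6, and positions from GENCODE on the same build. 1 further gene targeted in these cells is left out of the text.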

Additional observations from a re-analysis of the deposited data

Results flagged for a closer look

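The effect of RAS deletion in 2iL differed between ERF WT and ERF KO cells for 2 of the 152 genes, by the interaction term of the edgeR quasi-likelihood fit, 1 in each direction, where 0.162% of all genes tested were called positive and 0.216% negative. Lrrc15 had a log2 interaction of -2.33 (adjusted p = 0.0274), with a fitted RAS effect of 0.60 in ERF WT and -1.73 in ERF KO cells. Ffar3 had one of 1.76 (adjusted p = 0.0492), with -0.70 in ERF WT and 1.06 in ERF KO cells. Neither RAS effect passed the threshold within its own genotype. The Lrrc15 libraries of both ERF KO 2iL groups were under 2 CPM. No gene of the set was called in 7 of the 12 fits that each left out 1 library.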

How the results depend on the processing

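The fall of most of the genes with ERF knockout in 2iL kept its direction in every alternative run. With RAS present 83 to 90 genes were called with single libraries left out, with RAS deleted 92 to 97, and from 2iL to FA in ERF KO cells 101 to 106. For RAS deletion in 2iL with ERF WT 9 genes were called, 15 with no fold minimum, 3 without replicate 1 of every group (an alternative added after the data were seen) and 4 to 7 with single libraries left out. With ERF KO 1 was called, 2 by DESeq2, 4 with no filter on low counts, 6 with no fold minimum and 0 to 1 with single libraries left out. The interaction gave 2 calls, 8 by DESeq2, 1 with RLE normalization, 11 with no filter, 4 with only the groups compared, 1 without replicate 1 of every group and 0 to 3 with single libraries left out. The cause of these shifts was not tested. Of 541 alternative values for 41 tests of single genes, 43 lost the call and 0 changed sign.

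The selection gave 152 genes, 430 with a pseudocount of 0.1, 57 with a pseudocount of 5, 320 with a log2 difference of 1.5, 30 with one of 3, and 132 to 177 with single libraries left out. TMM-scaled library sizes gave 131, all among the 152. Against 2iL, a class limit of 2 gave 29 genes above, 123 near and 0 below. With single libraries left out 51 to 60 were above, 78 to 84 near and 9 to 23 below.

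Same-numbered libraries did not deviate together in every pair (correlations -0.012 to 0.214), and the main fits did not take the numbers as pairs. With the ERF label held the same, every same-numbered correlation was positive. They were 0.054 to 0.214 for RAS deletion with ERF WT, 0.087 to 0.208 with ERF KO and 0.039 to 0.163 for FA against 2iL. Libraries correlated best with their own number in 5, 6 and 5 of 6 cases for these comparisons. For ERF knockout it was 0 of 6 with RAS present and 4 of 6 with RAS deleted. The chromosome 8 and 11 shifts of replicate 1 are also shared across groups of the same ERF label. The sources used here do not say whether a number stands for 1 culture, so a pairing may exist that the main fits ignored. With a replicate block, fitted on the groups compared, calls were 11 for RAS deletion with ERF WT, 4 with ERF KO, 86 and 98 for ERF knockout with RAS present and deleted, 2 for the interaction and 100 for FA against 2iL. Genes near 1 CPM rest on few counts, and the depth limits what can be said of them.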
